A study of Mus musculus with 6 samples.

Results

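The 10 genes described here are a group tied to the transcription factor ATF4 and the integrated stress response: Atf4, Atf5, Ddit3, Trib3, Asns, Chac1, Psat1, Phgdh, Slc7a11 and Cebpz. They were chosen by name, with earlier results of these data known, as 10 of the 53618 named rows of an RNA-seq table with 6 libraries. Of these, 9 were among the 12298 genes expressed highly enough to be tested. The libraries were made from GFP+Lin-c-Kit+ cells of the spleens of mice with AE9a acute myeloid leukemia, in which a shortened AML1-ETO fusion protein drives the disease and GFP marks the leukemia cells. All leukemia cells were Usp18+/f, carried a tamoxifen-activated Cre and descended from retrovirally transduced fetal liver cells that had been passed into sub-lethally irradiated secondary hosts. 3 mice were injected with oil and remained Usp18+/f, 3 mice were injected with tamoxifen to give Usp18+/Δ cells, and the cells were collected 3 days after the first injection. Only the tamoxifen group received the drug, so an effect of the drug itself cannot be told apart from that of the allele.

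In the integrated stress response, kinases that sense viral RNA, unfolded protein, amino acid shortage or heme shortage phosphorylate the translation factor eIF2alpha. General translation then falls while the Atf4 mRNA is translated more, so that ATF4 activity is set largely at the protein level and the amount of Atf4 mRNA is an incomplete measure of it. ATF4 pairs with C/EBP proteins on composite DNA elements and induces genes for amino acid synthesis, uptake and tRNA charging, and under lasting stress it induces the death-linked factors CHOP (the product of Ddit3), ATF5, TRIB3 and CHAC1. In leukemia cells the pathway is known for adapting cells to nutrient and proteotoxic stress.

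The composite element was searched for as TGATGNAA on both strands, in windows from 250 bases before to 50 bases after each gene start in RefSeq (GRCm38.p6). 9 of the 10 genes had a window in that table, 4 of these 9 genes (44.4%) held a match, and so did 4.51% of the 27025 genes with a window. The match was not particular to these genes, as 14 of the 48 other integrated stress response genes with a window (29.2%) held it, 5 of 9 tRNA synthetase genes (55.6%) among them. The sequences below show where the matches lie, in capitals, reading 5′ to 3′ along each gene. In Asns the match began 23 bases before the start, in Chac1 it began 193 bases before, and Slc7a11 held a pair on opposite strands that began 66 and 47 bases before. The Trib3 match began at base 15, with the start counted as the first base, and is given in its 30-base surroundings (chr2:152344028-152344057, minus strand). The other 3 are the whole 250 bases before the start (Asns, chr6:7693210-7693459, minus strand; Chac1, chr2:119350992-119351241, plus strand; Slc7a11, chr3:50443614-50443863, minus strand). These RefSeq starts (7693209 for Asns, 152344060 for Trib3) differ from the GENCODE gene coordinates given below. By the GENCODE coordinates the Asns match lies inside the gene and the Trib3 match before it.
Trib3: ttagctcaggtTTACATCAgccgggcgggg
Asns: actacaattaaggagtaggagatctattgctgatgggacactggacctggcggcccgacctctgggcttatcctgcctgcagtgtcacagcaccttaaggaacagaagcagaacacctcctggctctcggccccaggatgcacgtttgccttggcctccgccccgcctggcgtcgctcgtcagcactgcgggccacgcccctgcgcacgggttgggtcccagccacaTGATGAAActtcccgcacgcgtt
Chac1: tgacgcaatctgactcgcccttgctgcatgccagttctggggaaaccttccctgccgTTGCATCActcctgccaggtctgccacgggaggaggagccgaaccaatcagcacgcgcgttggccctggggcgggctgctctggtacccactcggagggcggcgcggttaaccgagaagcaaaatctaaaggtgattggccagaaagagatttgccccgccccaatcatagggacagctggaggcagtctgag
Slc7a11: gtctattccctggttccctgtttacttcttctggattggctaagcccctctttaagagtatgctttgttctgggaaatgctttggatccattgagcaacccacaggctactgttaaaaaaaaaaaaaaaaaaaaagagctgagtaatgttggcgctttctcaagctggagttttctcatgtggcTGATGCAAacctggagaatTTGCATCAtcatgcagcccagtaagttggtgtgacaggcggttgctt
The windows of Atf4, Atf5, Ddit3, Psat1 and Phgdh held no match, which says only that these letters are not in those windows. A match describes the letters and is not a measured binding site.

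Values are normalized counts: the reads of a gene after division by a size factor of the library. Recovered reads numbered 19172471 to 23785143 per library. Usp18, the gene meant to lose an allele, did not follow the labels. This negative regulator of interferon signaling, itself interferon-induced, had values of 217, 214 and 176 with the label oil against 477, 329 and 284 with the label tamoxifen. Every tamoxifen value was above every oil value, as in 7.86% of all tested genes. On all 6 libraries Usp18 was not called by limma (adjusted p = 0.666) or DESeq2 (adjusted p = 0.315), but was by limma with library weights (adjusted p = 0.0348). The paper on these data reports stronger interferon responses in sorted Usp18+/Δ leukemia cells. Its evidence was enrichment of interferon gene sets in bulk RNA-seq, followed by qRT-PCR and western blots. Whether the labels of these libraries are right was not tested. The table holds 1 value per gene, which does not tell the alleles apart, and all directions below are between libraries as labelled. The library labelled tamoxifen 1 stood apart. It had 0.00923% mitochondrial reads against 1.01% to 1.56% in the other 5, a median correlation of 0.903 with the other libraries against 0.980 to 0.990, and a Spearman correlation of 0.70 between a gene's deviation from its 6-library median and the GC content of its transcript. Cd3e and Cd8a of T cells, Ms4a1 of B cells, Ncr1, Klrb1c and Klrd1 of NK cells and Ly6g of neutrophils had 0 reads in every library. Other markers of these lists were detected: summed T cell markers measured 0.898 to 2.89 in oil and 1.82 to 8.08 in tamoxifen, B cell markers 3.71 to 9.65 and 6.06 to 24.3 (1 of 4 above all oil libraries in every tamoxifen library), NK cell markers 58.9 to 159 in oil and 644, 193 and 661 in tamoxifen 1, 2 and 3 (1 of 4 above, Nkg7), and neutrophil markers 0.898 to 4.64 in oil and 12.7 to 39.6 in tamoxifen (3 of 4 above). Summed macrophage markers measured 71.4 to 145 in oil and 166 to 222 in tamoxifen libraries, with 4 of 6 above all oil libraries. For comparison, 7.86% of all tested genes were above and 9.69% below in this way, and no B cell or neutrophil marker reached the level to be tested. Summed mast cell and basophil markers measured 26300 to 26900 in oil and 8040, 28700 and 29800 in tamoxifen 1, 2 and 3, with 1 of 4 above and 1 of 4 below. Erythroid markers summed to 46500 to 65400 in oil and 82000, 51300 and 72100 in tamoxifen (1 of 4 below), and leukemia progenitor markers to 7960 to 9930 in oil and 5050, 8530 and 12200 in tamoxifen (2 of 6 above). The part of these markers in the results below was not tested, and in bulk samples a change in the mix of cells and a change of RNA within a cell cannot be told apart.

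By limma on log2(value + 1), none of the 9 tested genes passed an adjusted p of 0.05 in either direction, as was so for all genes tested (0% called higher and 0% called lower). At an unadjusted limma p under 0.05, 2 of the 9 were higher in tamoxifen libraries and 0 lower. Of all 12298 genes tested, 3.23% were higher and 153 genes were lower at that threshold. In 3 of the 9, Atf5, Ddit3 and Trib3, every tamoxifen library lay above every oil library (7.86% of all genes), and in 0 every one lay below (9.69% of all genes). With tamoxifen 1 set aside these counts were 4 above (12.6% of all genes), with Chac1 added, and 0 below (16.8%). DESeq2 on recovered reads called 0 of the genes on all 6 libraries (0.437% of genes called higher) and edgeR called 0. Without tamoxifen 1, DESeq2 called 2 of them, Atf5 and Trib3, where 1.28% of genes were called higher. limma with library weights, in which tamoxifen 1 had a weight of 0.0377, called the same 2, against 3.82% of genes. As the 10 genes were chosen with earlier results of these data known, these counts are no independent evidence of a direction.

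**Figure D1:**
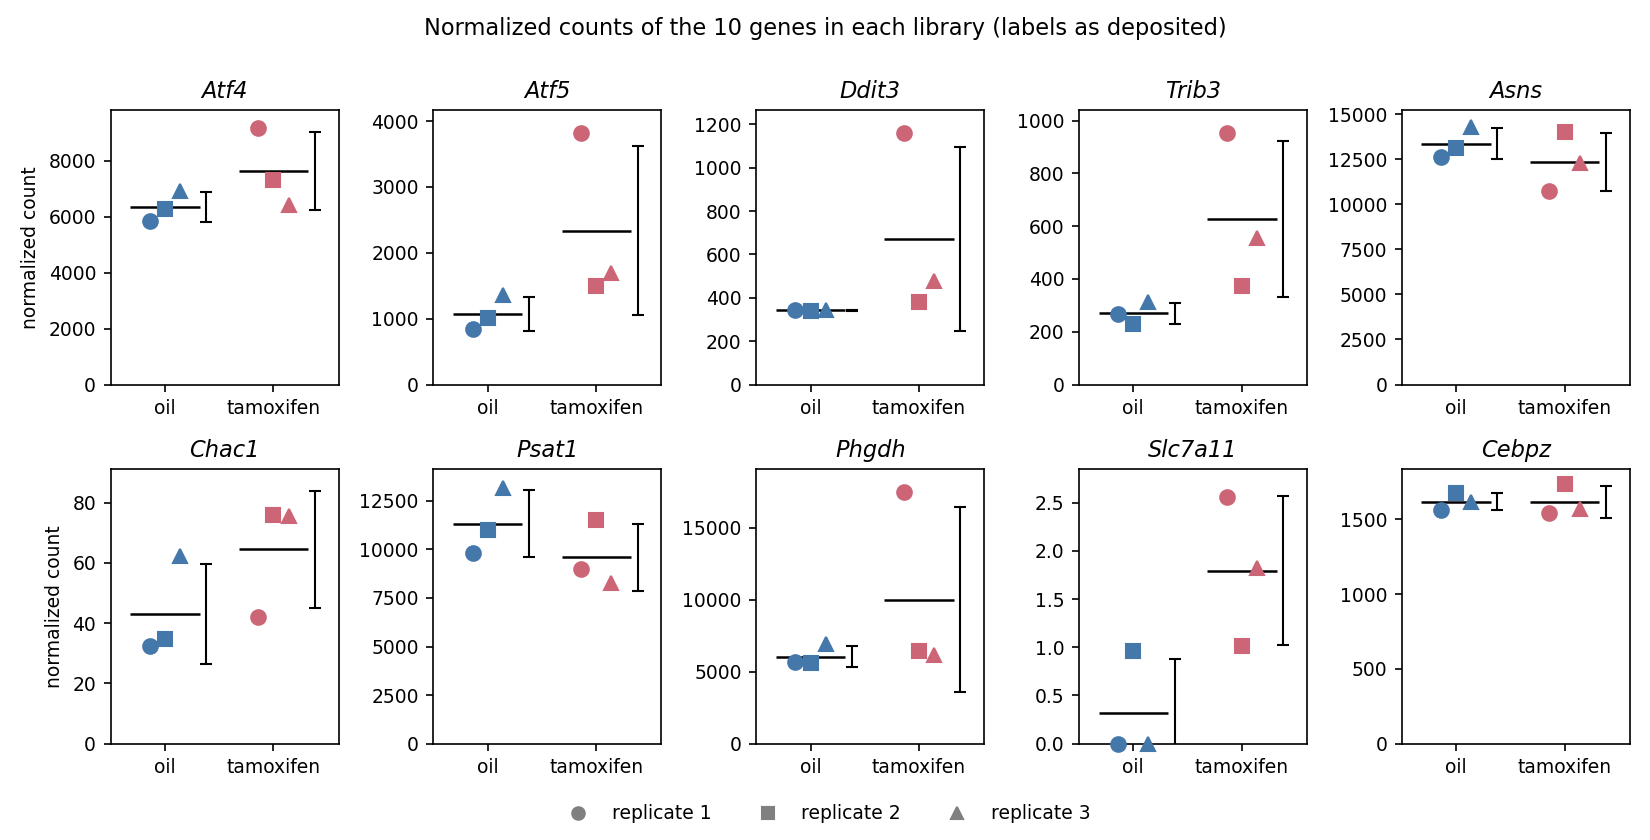
Each panel plots the normalized count (linear axis from 0) of 1 gene in the 3 oil and 3 tamoxifen libraries; symbols mark the replicate number, lines the group means and bars the SD. Tamoxifen 1 is the highest library for Atf4, Atf5, Ddit3, Trib3 and Phgdh, the remaining tamoxifen libraries also lie above oil for Atf5, Ddit3 and Trib3, and Slc7a11 has at most 2 reads in a library.

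Atf4 (ENSMUSG00000042406.8, chr15:80255184-80257541, plus strand, GRCm38) was an abundant transcript and its groups overlapped. It measured 5833, 6266 and 6923 in oil 1, 2 and 3 and 9166, 7327 and 6413 in tamoxifen 1, 2 and 3. The means were 6341 ± 549 and 7635 ± 1402 (SD, n = 3 each), so tamoxifen 1 and 2 lay above the oil range and tamoxifen 3 inside it. By limma, the estimated log2 fold change was 0.26 ± 0.18 (SE, limma adjusted p = 0.666), 0.12 without tamoxifen 1, and 0.07 after a correction for GC content. The transcript of Atf4 has a GC content of 55.5%, and its deviation of 0.46 (log2) in tamoxifen 1 was below the 0.56 that genes of that GC content showed in that library. The 5 tested genes whose log2 values followed Atf4 most closely over the 6 libraries were Bccip, Noc4l, Nsun2, Txn2 and Adh5, with Pearson r from 0.9925 to 0.9973. These points share the same 6 libraries, and without tamoxifen 1 r was 0.97 to 0.99. Because the 5 had the highest r of all tested genes, high values follow from the choice, also without tamoxifen 1.

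Atf5 (ENSMUSG00000038539.15, chr7:44812256-44816658, minus strand) encodes a factor related to ATF4 that is controlled in the same translational way and is linked to the mitochondrial stress response. It measured 845, 1008 and 1358 in the oil libraries and 3815, 1502 and 1692 in tamoxifen 1, 2 and 3. The lowest tamoxifen value was thus above the highest oil value, and tamoxifen 1 was far above the rest. By limma, the estimated log2 fold change was 1.02 ± 0.38 (SE, limma unadjusted p = 0.0344, adjusted p = 0.666, higher in 3 of 3). Without tamoxifen 1 it was 0.60, with an adjusted p of 0.199 by limma and 0.0254 by DESeq2. At a GC content of 61.7%, genes in tamoxifen 1 deviated by 1.06 on the log2 scale and Atf5 by 1.42. Its exons share at most 82 bases with a gene on the opposite strand (Il4i1 and Nup62), and the strand setting of the counting is not given in the sources used here.

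Ddit3 (ENSMUSG00000025408.15, chr10:127290774-127296288, plus strand) encodes CHOP, which links unresolved stress to cell death. Its oil values were nearly equal, at 344, 339 and 344, and the tamoxifen values were 1159, 379 and 477. All 3 tamoxifen libraries lay above oil, tamoxifen 2 only narrowly. The mean was 342 ± 3.25 in oil and 672 ± 425 in tamoxifen (SD, n = 3 each). By limma, the estimated log2 fold change was 0.79 ± 0.41 (SE, limma unadjusted p = 0.0961, adjusted p = 0.666), and without tamoxifen 1 it was 0.31 (adjusted p = 0.376 by limma and 0.504 by DESeq2). With a GC content of 45.6%, Ddit3 went the other way from genes of like composition in tamoxifen 1: they deviated by -0.47 on the log2 scale and Ddit3 by 1.68, and the log2 fold change was 0.98 after a correction for GC content. Ddit3 exons share at most 68 bases with an opposite-strand gene (Gm4189 or Mars), and Mars itself measured 2606, 3105 and 3612 in oil and 5149, 3092 and 2522 in tamoxifen 1, 2 and 3. Rptor, Sp110, Irf2bpl, Emilin2 and Rab43 followed Ddit3 most closely over the 6 libraries (Pearson r 0.9982 to 0.9996), all 5 being highest in tamoxifen 1. Without that library r was 0.98 to 0.99. These 5 were picked by the highest r as for Atf4, so high values again follow from the choice.

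Trib3 (ENSMUSG00000032715.9, chr2:152337422-152344032, minus strand) encodes a pseudokinase that ATF4 and CHOP induce and that binds AKT. It measured 268, 231 and 311 in oil and 953, 373 and 555 in tamoxifen 1, 2 and 3, and no library of one group reached into the other. The fold change was 2.17 (log2 1.12, standard error 0.35, limma unadjusted p = 0.0171, adjusted p = 0.666, higher in 3 of 3). Without tamoxifen 1 the log2 fold change was 0.76, with an adjusted p of 0.171 by limma, and DESeq2 gave 0.80 with an adjusted p of 0.0121. Correction for GC content gave 0.85. Of the 9 tested genes it had the largest log2 fold change on all 6 libraries, and Atf5 the next.

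Chac1 (ENSMUSG00000027313.3, chr2:119351229-119354381, plus strand) encodes a glutathione-degrading enzyme downstream of ATF4 and CHOP. It was low, at 32.3, 34.7 and 62.2 in oil and 42.2, 75.8 and 75.5 in tamoxifen 1, 2 and 3. Here tamoxifen 1 was the lowest of its group and lay inside the oil range, while tamoxifen 2 and 3 lay above it. By limma, the estimated log2 fold change was 0.58 ± 0.39 (SE, limma adjusted p = 0.666) and 0.86 without tamoxifen 1 (adjusted p = 0.305). Genes of its GC content (57.4%) deviated by 0.73 on the log2 scale in tamoxifen 1, and Chac1 by -0.28.

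**Figure D2:**
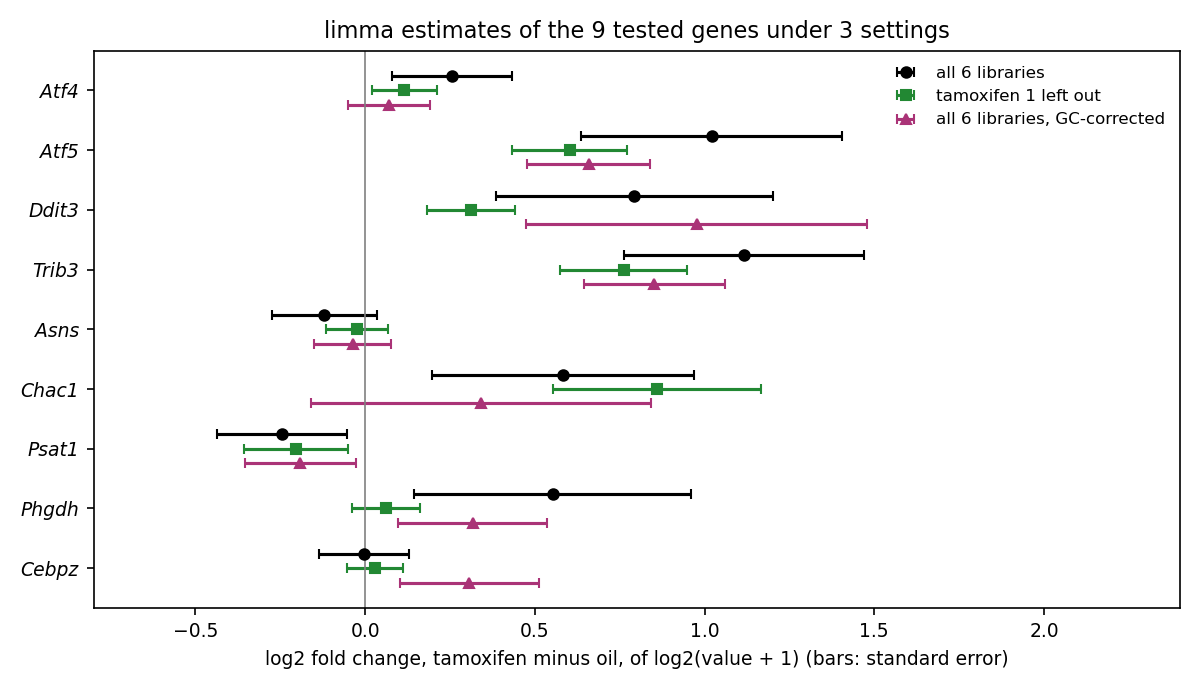
Points are limma log2 fold changes of log2(value + 1), tamoxifen minus oil, with standard errors as bars, for the 9 tested genes on all 6 libraries, without tamoxifen 1, and after GC correction. Trib3 and Atf5 stay at 0.60 or above under the 3 settings, Ddit3 moves between 0.31 and 0.98, and Phgdh between 0.06 and 0.55.

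The amino acid enzymes among the 10 were abundant and did not separate the groups. Asns (ENSMUSG00000029752.12, chr6:7675169-7693254, minus strand), which makes asparagine and is a standard ATF4 target, measured 12617, 13142 and 14306 in oil and 10755, 14001 and 12283 in tamoxifen. Its log2 fold change came to -0.12 ± 0.15 (SE, limma adjusted p = 0.709), and -0.02 without tamoxifen 1. Psat1 (ENSMUSG00000024640.9, chr19:15904678-15947337, minus strand), of the serine pathway, measured 9829, 10975 and 13176 in oil and 8964, 11526 and 8263 in tamoxifen. The lowest values were in tamoxifen 3 and 1, and the groups overlapped through tamoxifen 2 (log2 fold change -0.25, standard error 0.19, limma adjusted p = 0.666). With each library left out in turn, the log2 fold change of Psat1 ranged from -0.39 to -0.13.

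Phgdh (ENSMUSG00000053398.11, chr3:98313170-98339990, minus strand) catalyzes the first step of serine synthesis, upstream of PSAT1. It measured 5643, 5637 and 6898 in oil and 17463, 6423 and 6171 in tamoxifen 1, 2 and 3. Tamoxifen 1 alone stood above, since the other tamoxifen values lay within the oil range. By limma, the estimated log2 fold change was 0.55 ± 0.41 (SE, limma adjusted p = 0.666) and 0.06 without tamoxifen 1. In tamoxifen 1, Phgdh deviated by 1.47 on the log2 scale where genes of its GC content (57.2%) deviated by 0.71. The ratio of Phgdh to Psat1 values was 0.514 to 0.574 in oil, 1.95 in tamoxifen 1, and 0.557 and 0.747 in tamoxifen 2 and 3, so these neighbors in one pathway parted mainly in that library.

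Slc7a11 (ENSMUSG00000027737.10, chr3:49892526-50443614, minus strand), the cystine importer that protects from ferroptosis, was barely detected. It had 0, 1 and 0 reads in oil and 2, 1 and 2 in tamoxifen, under the 3 reads taken as a floor, so no fold was formed and a difference was not detectable at this depth. The pair of composite elements shown above thus lay before a gene with at most 2 reads in a library. Cebpz (ENSMUSG00000024081.9, chr17:78919006-78937066, minus strand) encodes a CCAAT-binding factor. It should be kept apart from CHOP, which once carried the name C/EBP zeta, and it is not an established ATF4 target. It measured 1563, 1673 and 1618 in oil and 1540, 1735 and 1571 in tamoxifen, the flattest of the 9 tested genes (log2 fold change under 0.01 in size, standard error 0.13, limma adjusted p = 0.99). Its GC content was 43.4%, at which genes in tamoxifen 1 deviated by -0.82 on the log2 scale and Cebpz by -0.05, so the GC correction alone moved its log2 fold change to 0.31.

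**Figure D3:**
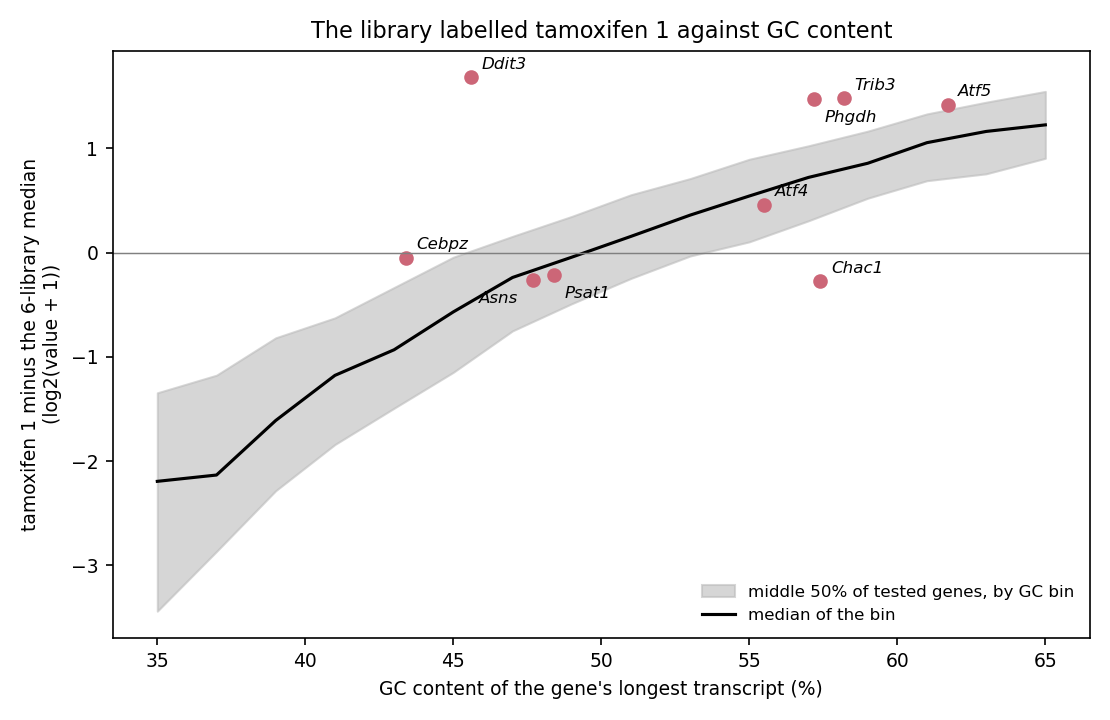
The x axis is the GC content of a gene's longest transcript (%) and the y axis the difference between tamoxifen 1 and the gene's 6-library median of log2(value + 1); the line and band are the median and middle 50% of tested genes in bins of 2 percentage points, and red points are the 9 tested genes. Ddit3 lies at 1.68 where genes of its composition lie below 0, Phgdh, Trib3 and Atf5 lie above the line, and Chac1 lies below it.

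Levels can be compared between genes after division by exon length. In oil libraries the mean normalized count per kilobase was 4883 for Asns (4613 to 5231), then 2689 for Atf4, 2663 for Psat1 and 2437 for Phgdh. The ranges of these last 3 over the oil libraries overlapped, at 2474 to 2936, 2310 to 3097 and 2268 to 2775. Atf5 followed at 537, Cebpz at 347, Ddit3 at 200, Trib3 at 127 and Chac1 at 26.3 per kilobase, and no ranges of these 5 overlapped. Within a library, the ratio of Trib3 to Atf4 values was 0.0368 to 0.0459 in oil and 0.104, 0.0509 and 0.0865 in tamoxifen 1, 2 and 3, and that of Atf5 to Atf4 was 0.145 to 0.196 in oil and 0.416, 0.205 and 0.264 in tamoxifen. For both, every tamoxifen ratio was above every oil ratio. The ratio of Asns to Atf4 went the other way, with 2.07 to 2.16 in oil and 1.17, 1.91 and 1.92 in tamoxifen. The ratio of Ddit3 to Atf4 overlapped, at 0.0498 to 0.059 in oil and 0.126, 0.0517 and 0.0744 in tamoxifen.

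Among the 10, Ddit3 and Trib3 kept close company over the libraries: their Pearson r on log2 values was 0.94 over 6 libraries and 0.95 over the 5 without tamoxifen 1. Asns and Psat1 did the same, with 0.82 and 0.95. Between those pairs, Ddit3 and Psat1 had r of -0.57 and, without tamoxifen 1, -0.74. Ddit3 and Phgdh went from 0.96 to 0.16 when tamoxifen 1 was left out. Other pairs reached values as high, so the first pairs are not particular. Atf5 and Trib3 had r of 0.95, and 0.85 without tamoxifen 1, while Atf5 and Chac1 went from 0.26 to 0.97. These are descriptions over few points that share library, depth and, in tamoxifen 1, base composition.

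The 4 kinases upstream did not separate the groups on all 6 libraries (limma adjusted p from 0.668 to 0.975). Eif2ak2 encodes PKR, the sensor of double-stranded RNA and an interferon-stimulated gene. It measured 1170, 1347 and 1301 in oil and 458, 1729 and 1488 in tamoxifen 1, 2 and 3, so that tamoxifen 1 was the lowest of all libraries and the other tamoxifen libraries were above all oil libraries. Its log2 fold change was -0.27 on all 6 libraries and 0.34 without tamoxifen 1, where DESeq2 gave an adjusted p of 0.0925. Eif2ak3, which encodes PERK, measured 525 to 577 in oil and 921, 523 and 577 in tamoxifen. Eif2ak4, which encodes the amino acid sensor GCN2, measured 1284 to 1533 in oil and 1617, 1568 and 1218 in tamoxifen. Eif2ak1, which encodes the heme-regulated kinase, measured 2035 to 2182 in oil and 2047, 1942 and 2017 in tamoxifen 1, 2 and 3, so that without tamoxifen 1 it was below all oil libraries, as were 16.8% of all genes (12.6% were above, as Eif2ak2 was). Of the eIF2 phosphatase subunits, Ppp1r15a, an ATF4 and CHOP target that encodes GADD34, measured 757, 1112 and 654 in oil and 1613, 758 and 1036 in tamoxifen, with overlap, and Ppp1r15b 9117 to 9745 in oil and 5889, 10056 and 9473 in tamoxifen. No gene of the 10 in the list of eIF2, eIF2B and phosphatase subunits separated the groups. The smallest p of that list belonged to Eif2b3 (579 to 660 in oil, 943, 662 and 649 in tamoxifen), Eif2s3x (4263 to 4833 in oil, 1398, 4728 and 4139 in tamoxifen) and Eif2s1 (5844 to 6898 in oil, 2266, 6642 and 5637 in tamoxifen). Each left the oil range furthest in tamoxifen 1, and by less in tamoxifen 2 (Eif2b3) or tamoxifen 3 (Eif2s3x and Eif2s1).

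The stress effectors, a mixed list of stress-induced genes, held the largest median difference of the 8 lists. 8 of 10 were tested, their median log2 fold change was 1.11 against -0.02 over all genes, and in 5 of the 8 every tamoxifen library lay above every oil library (7.86% of all genes). limma called 0 of the 8 on all 6 libraries, with 5 higher at an unadjusted p under 0.05 (3.23% of all genes). DESeq2 called 3 higher (Sesn2, Ddit4 and Stc2, against 0.437% of genes), and without tamoxifen 1 limma called Sesn2 and Ddit4, where 0.309% of genes were called higher. The list was chosen with earlier results of these data known and is no independent evidence of a direction. Several of its members, among them Sesn2, Ddit4, Gdf15 and Bbc3, are also known targets of p53.

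Sesn2, an inhibitor of mTORC1 that senses leucine, measured 502, 513 and 477 in oil and 1663, 1031 and 953 in tamoxifen 1, 2 and 3. Its log2 fold change came to 1.24 ± 0.24 (SE), higher in 3 of 3, with an adjusted p of 0.612 by limma and 0.00367 by DESeq2. Without tamoxifen 1 it was 0.99 (limma adjusted p = 0.00277). Ddit4, another mTORC1 inhibitor, measured 504, 418 and 408 in oil and 2007, 928 and 1213 in tamoxifen (log2 fold change 1.57, standard error 0.30, adjusted p = 0.58 by limma and 0.000827 by DESeq2), and 1.26 without tamoxifen 1 (limma adjusted p = 0.00544).

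Stc2, which encodes a secreted glycoprotein, was low but far apart, at 8.08, 2.89 and 6.50 in oil and 40.9, 30.3 and 70.9 in tamoxifen (log2 fold change 2.82, standard error 0.49, adjusted p = 0.576 by limma and 0.000642 by DESeq2). Leaving out tamoxifen 1 left it at 2.88 (limma adjusted p = 0.0755). Gdf15 and Bbc3 were outside the rule for naming genes and were picked after their values were seen. Gdf15, a stress cytokine, measured 5.39, 10.6 and 13.9 in oil and 62.6, 19.2 and 34.6 in tamoxifen, and Bbc3, which encodes the death protein PUMA, 348, 441 and 462 in oil and 1166, 596 and 778 in tamoxifen. For Bbc3 the DESeq2 adjusted p was 0.181 on all 6 libraries and 0.00348 without tamoxifen 1, where the limma adjusted p was 0.13. For Gdf15 the DESeq2 adjusted p was 0.205 on all 6 libraries and 0.476 without tamoxifen 1, where the limma adjusted p was 0.3. The remaining 3 tested effectors, Eif4ebp1, Ero1l and Herpud1, overlapped between groups.

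Of the bZIP partners, 4 of 6 were tested, and 2 were above oil in every tamoxifen library (7.86% of all genes). Cebpb, a partner of ATF4 and CHOP, measured 84.4, 91.7 and 127 in oil and 566, 139 and 208 in tamoxifen (log2 fold change 1.35, standard error 0.52, limma adjusted p = 0.666; 0.77 without tamoxifen 1). Nupr1, a small stress-induced chromatin protein, measured 351, 353 and 389 in oil and 648, 458 and 500 in tamoxifen, a log2 fold change of 0.54 ± 0.19 (SE, limma adjusted p = 0.666). Cebpg, which encodes the partner of ATF4 at amino acid response genes, measured 1288 to 1414 in oil and 610, 1389 and 1332 in tamoxifen. Atf3, itself an ATF4 target in many cells, had at most 1 read in any library.

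**Figure D4:**
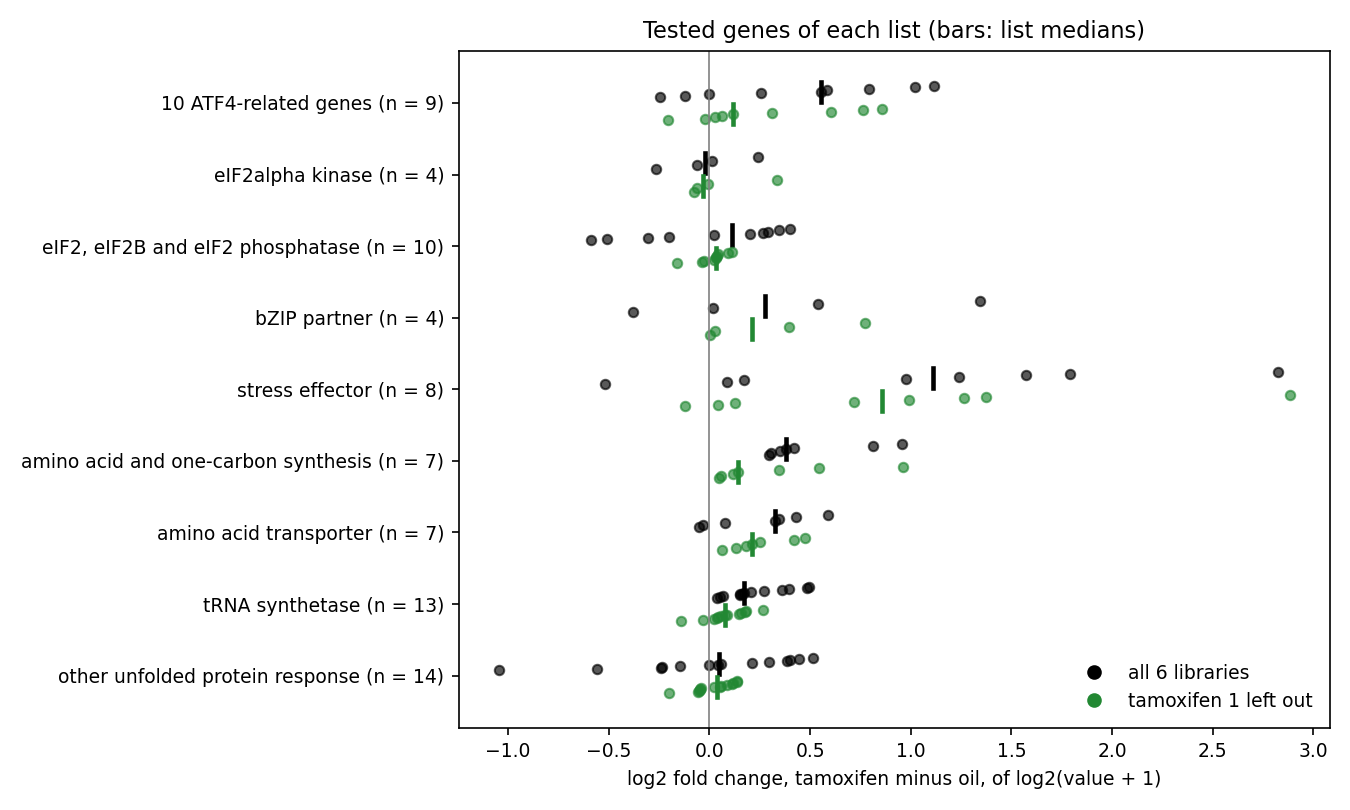
Each point is the limma log2 fold change (tamoxifen minus oil, log2(value + 1)) of 1 tested gene, grouped by list, on all 6 libraries (black) and without tamoxifen 1 (green), with short bars at list medians. The stress effectors have medians of 1.11 and 0.86, the tRNA synthetases 0.17 and 0.08, and the other unfolded protein response genes 0.05 and 0.04.

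The amino acid branch beyond the 10 had smaller medians. All 7 tested genes of amino acid and one-carbon synthesis and all 13 of the tRNA synthetase list (Xpot, a tRNA exporter, included) had a log2 fold change above 0, as had 48.4% of all genes. The medians were 0.38 and 0.17, then 0.14 and 0.08 without tamoxifen 1, and 0.39 and 0.22 after GC correction. Tamoxifen 1 was the highest library in 10 of the 13 synthetase genes (41.1% of all genes), and without it Mars (-0.14) and Sars (-0.03) were below 0. limma called 0 of these 20, with 0 at an unadjusted p under 0.05, and DESeq2 called 0. Of the 20, 1 gene (Wars) was above oil in every tamoxifen library, where 7.86% of all genes were, so the count is near the background. Cth, which makes cysteine from cystathionine, measured 129, 215 and 355 in oil and 415, 624 and 281 in tamoxifen, Gpt2 29.6, 37.6 and 71.5 in oil and 111, 84.9 and 47.3 in tamoxifen, and Mthfd2, of the mitochondrial folate cycle, 1024, 1387 and 2254 in oil and 2184, 2108 and 1669 in tamoxifen. All 3 overlapped between the groups. Gars, Aars and Eprs, the synthetases with the smallest p, had log2 fold changes of 0.50, 0.48 and 0.27 (limma adjusted p = 0.666 each), and of 0.27, 0.15 and 0.18 without tamoxifen 1.

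The oil mice differed among themselves in these and other genes. In all 13 tRNA synthetase genes and all 7 synthesis genes, oil 1 was the lowest and oil 3 the highest of the oil libraries, an order found in 21.6% of all tested genes. The same held in 5 of the 9 tested genes of the group, Atf4, Atf5, Asns, Psat1 and Chac1, in 4 of the 8 stress effectors, in 4 of 7 transporters, in 2 of 4 bZIP partners, in 7 of 10 genes of eIF2, eIF2B and phosphatase subunits, in 0 of 4 kinases, and in 12 of 14 other unfolded protein response genes. Ddit3 was level over the same libraries. The pattern was picked after the values were seen, the genes are co-regulated and so are not separate observations, and what differed between the oil mice was not tested.

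**Figure D5:**
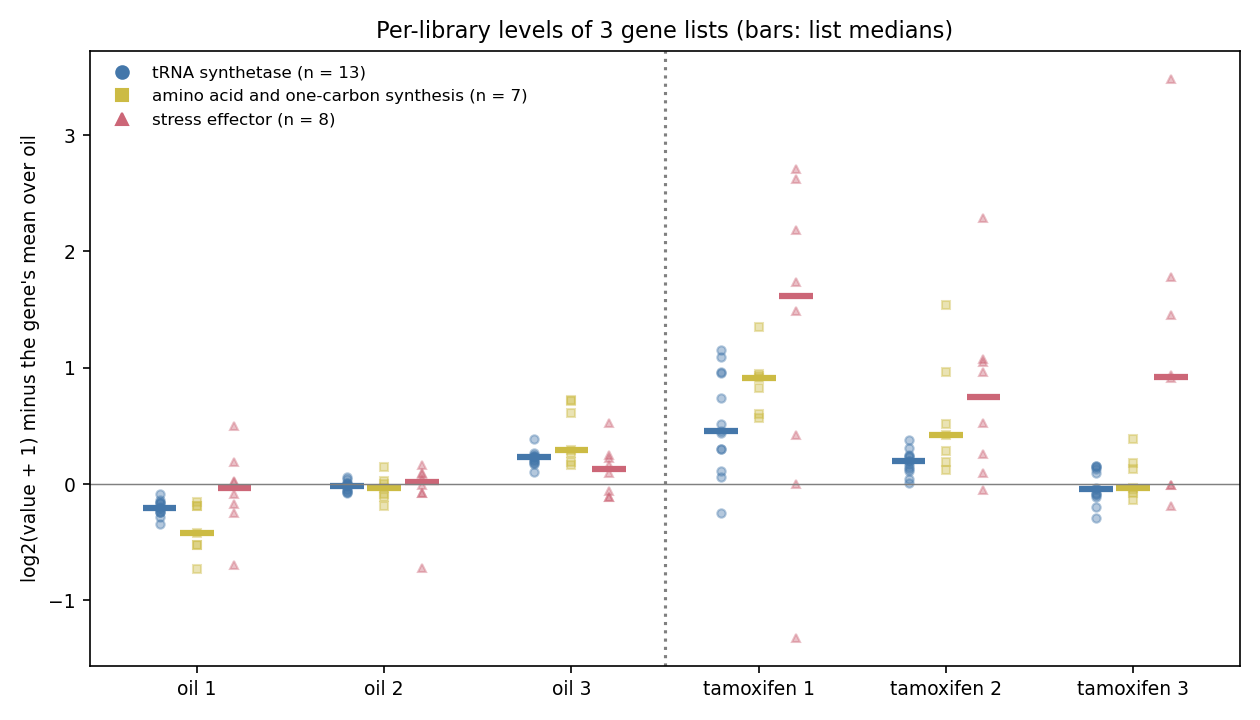
The y axis is log2(value + 1) minus the gene's mean over oil, for each library on the x axis, with 1 point per gene and bars at list medians. The synthetase and synthesis genes are lowest in oil 1 and highest in oil 3 among the oil libraries and lie near 0 in tamoxifen 3, whereas the effector median is near 0 in the oil libraries and higher in each of the 3 tamoxifen libraries.

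Of the transporters 7 of 8 were tested, and their median log2 fold change of 0.32 came to 0.21 with tamoxifen 1 left out and 0.19 after GC correction. In 2 of them every tamoxifen library was above oil (7.86% of all genes). Slc7a5, the leucine carrier LAT1, measured 13188, 14642 and 16161 in oil and 21386, 16661 and 17160 in tamoxifen (log2 fold change 0.32, standard error 0.17, limma adjusted p = 0.666; 0.21 without tamoxifen 1). Slc1a5, a glutamine carrier, measured 3150, 3418 and 4075 in oil and 6127, 4136 and 4257 in tamoxifen, with a log2 fold change of 0.43, and 0.25 without tamoxifen 1. Slc3a2, the shared heavy chain of LAT1 and of the cystine importer, measured 7592 to 8253 in oil and 12796, 8219 and 10061 in tamoxifen, so it overlapped through tamoxifen 2.

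The branches of the unfolded protein response other than ATF4 showed a median log2 fold change of 0.05 over 14 tested genes, with 8 above and 6 below 0. After GC correction their median was 0.20. Xbp1, the target of IRE1 splicing, was above oil in every tamoxifen library (1908, 2159 and 2168 in oil, 3968, 2318 and 2240 in tamoxifen), and Edem1, which takes misfolded proteins to degradation, was below (1973, 2016 and 2169 in oil, 1641, 1903 and 1671 in tamoxifen). These were 1 gene above and 1 below of 14, near the 7.86% and 9.69% of all genes, and neither passed the limma test (adjusted p = 0.666 each). Hyou1, an endoplasmic reticulum chaperone, measured 2208 to 3229 in oil and 6490, 3374 and 2593 in tamoxifen.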

How the data were processed

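Bulk RNA-seq was measured in 6 libraries, 1 per mouse, and groups were taken from the sample labels. The authors deposited a normalized signal per gene, read counts divided by 1 size factor per library. Per the submitters' processing notes STAR, DESeq2 and mm10 were used, while the counter, annotation version and strand setting are not given in the sources used here. In each library 100% of values were whole multiples, within 0.01, of the value of 1 read, and dividing by it recovered whole reads. Of 55450 rows, 1832 had no gene name (0.0400% to 0.0614% of reads) and stayed out of tests. Coordinates, exon lengths and GC content came from GENCODE vM21 (GRCm38), matched by symbol for 52048 of 53618 named rows, and promoter windows from RefSeq.

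Groups were compared with limma (3.58.1, under R 4.3.3), with its mean-variance trend, on log2(value + 1) of 12298 named genes that reached a value of 10 in 3 or more libraries. p-values were two-sided and Benjamini-Hochberg adjusted over all genes tested, with a threshold of 0.05. Fold changes on this scale understate the change of low genes. A group of 3 against 3 allows no exact permutation p below 0.1. Alternatives were DESeq2 (1.42.0), edgeR (4.0.16) and limma voom on recovered reads, pseudocounts of 0.5 and 5, TMM scaling, no filter, library weights, a replicate block, and leaving out each library. On recovered reads DESeq2 called 71 genes and edgeR 0. Chosen after the data were seen were a correction for GC content (a lowess curve with a span of 0.3 per library, without group information), the same without tamoxifen 1, and DESeq2 without tamoxifen 1. The limma, limma voom, DESeq2 and edgeR fits on all 6 libraries were also run on simulated reads, which held no GC trend and no deviant library. That run cannot say how these fits behave with a library like tamoxifen 1. Libraries without molecular identifiers do not count molecules, and the floor of 3 reads covers counting error alone.

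The 10 genes and all lists were chosen with earlier results of these data known. Named genes were the 10, Usp18, the 4 kinases, both Ppp1r15 genes, the 3 genes with the smallest limma p of every other list, and the 5 genes most correlated with Atf4 and with Ddit3. Other genes were named after their values were seen.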

Additional observations from a re-analysis of the deposited data

How the results depend on the processing

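Of the 9 tested genes, 8 kept the sign of their log2 fold change under all 18 alternatives. The exception was Cebpz, near 0 in the limma fit, which changed sign under 8 of the 18: it was 0.0129 by edgeR, 0.0122 by limma voom, 0.31 under the GC correction, 0.0433 by DESeq2 with tamoxifen 1 left out, 0.0674 under the GC correction with tamoxifen 1 left out, and -0.0563 to 0.0295 when each library was left out in turn. The count of called genes among the 10 moved from 0 to 2 under library weights and by DESeq2 with tamoxifen 1 left out, to 2 at an unadjusted p under 0.05, and to 3 by groups that do not overlap, and it remained 0 when any library was left out under limma. Among the 74 other pathway genes it moved from 0 to 3 by DESeq2, 7 under library weights, 4 by DESeq2 with tamoxifen 1 left out, 2 under the GC correction with tamoxifen 1 left out, and ranged from 0 to 2 over the libraries left out. Over all genes it moved from 0 to 71 by DESeq2, 782 under library weights, 2 under the GC correction, 230 by DESeq2 with tamoxifen 1 left out, 45 under the GC correction with tamoxifen 1 left out, and ranged from 0 to 41 over the libraries left out, the 41 being without tamoxifen 1. The cause was not tested. With the replicate number as a block (replicate block), 0 of the 10 genes, 0 pathway genes and 0 of all genes were called. Deviations of same-numbered libraries correlated at -0.02, 0.06 and -0.15, so the numbers were not taken to pair the mice. Slc7a11 and, of the other pathway genes, Atf3, Jdp2, Fgf21 and Cbs had 3 reads or fewer in every library. Whether depth or absent expression set these counts was not tested.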
